A study of Mus musculus with 24 samples.

Results

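The genes described here encode the nuclear part of the mitochondrial oxidative phosphorylation machinery, measured by RNA sequencing of mouse pituitary. They were chosen by symbol: protein-coding genes on nuclear chromosomes whose symbol begins with Nduf, Sdha to Sdhd, Uqcr, Cyc1, Cox4 to Cox8 or Atp5, with a mean of at least 1 CPM (counts scaled to the library total) over the 24 libraries. Of the 35191 genes in the count table, 110 carried such a symbol, 98 of these were nuclear and protein-coding, and 94 reached 1 CPM. Just above that level lay Cox4i2 at 1.42 CPM, Ndufa4l2 at 1.84 CPM, Sdhaf1 at 2.09 CPM and Cox7a1 at 2.17 CPM. The 4 genes under it were Cox8b at 0.295 CPM, Cox7b2 at 0.186 CPM, Cox6a2 at 0.1002 CPM and Cox8c at 0.00624 CPM. All 94 passed the filter on low counts, which left 21927 genes in the test. Read literally, the symbol rule also takes in proteins that are not subunits. There are 79 subunit genes, 8 complex I assembly factors (Ndufaf), 4 complex II assembly factors (Sdhaf) and 3 others (Cox7a2l, Atp5s and Ndufa4l2), and these last 3 classes are described apart.

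The study crossed sex with 4 genotypes in 8 groups of 3 pituitary libraries each. Wild type mice are labelled wt (-), Cre controls wt (+) with Cre but no floxed Egr1, Egr1cKO controls FF (-) with floxed Egr1 but no Cre, and Egr1cKO mice FF (+) with both. Egr1 is a zinc-finger transcription factor induced early after stimulation of a cell, and Egr1cKO names its conditional knockout. Of the Cre driver, the deleted exon, the ages and any pooling of glands the sources used here say nothing, so the cells that carried the deletion are not known. Egr1 itself (ENSMUSG00000038418) was counted in all libraries, and its group means were not lower in Egr1cKO than in Egr1cKO controls. It had 58.3, 238 and 105 CPM in male Egr1cKO against 51.1, 22.7 and 42.7 CPM. In females it had 162, 7.55 and 26.6 CPM against 34.2, 10.97 and 9.79 CPM. Cre controls had higher means than Egr1cKO, with 486, 74.3 and 25.3 CPM in males and 61.7, 486 and 94.8 CPM in females. Egr1cKO and Cre control overlapped in both sexes. Wild type had 19.1, 43.8 and 51.5 CPM in males and 10.9, 167 and 31.8 CPM in females. Since a count over the whole gene may include reads outside the deleted part, this does not check the knockout, and Egr1cKO below means the libraries so labelled. The libraries were polyA-selected and not strand-specific, from 1.5 ug of total RNA each. The labels do not state that the libraries of a group came from separate animals beyond a number in each title, so p-values measure the spread between these samples, which may be technical. Title numbers of wild type and Cre control libraries form one series and those of the floxed genotypes another, so floxed status and number series cannot be told apart. Each comparison below stays within 1 series, except where the Cre difference is subtracted from the Egr1cKO difference. Libraries are numbered 1 to 3 within a group in order of deposit.

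Oxidative phosphorylation runs through 5 complexes of the inner mitochondrial membrane. Complex I (NADH dehydrogenase) and complex II (succinate dehydrogenase) feed electrons to ubiquinone, complex III passes them to cytochrome c, complex IV hands them to oxygen, and complex V, the ATP synthase, makes ATP from the proton gradient. All complexes except complex II also contain subunits encoded by mitochondrial DNA, so their assembly needs both genomes. Many of the nuclear genes carry promoter motifs of the regulators NRF1, GABP (an ETS factor) and YY1. In the pituitary, hormone synthesis and secretion by the endocrine cells draw on this ATP supply.

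Promoter sequences from RefSeq (build GRCm38.p6) were matched by symbol for 76 of the 94 genes, which gave 81 windows of 300 bases, from 250 before to 50 after a start. The NRF1 motif (10 bases, seen in capitals in 3 of the windows below), searched on both strands, was found in 27.2% of these windows against 4.60% of all 32851 windows. The ETS motif CCGGAAG was found in 25.9% against 8.86%, and the YY1 motif AAGATGGCG in 9.88% against 1.40%. The EGR1 motif GCGNGGGCG was found in 7.41% of the windows of these genes and in 5.55% of all windows. A match is a description of letters, not of binding. The 4 windows below belong to genes that the comparisons turn on. They are written 5′ to 3′ with NRF1 and ETS matches in capitals (CTTCCGG is the ETS motif on the other strand), and no capital letter means that none of the 4 motifs was found there.
Atp5k, chr5:108434350-108434649, minus strand: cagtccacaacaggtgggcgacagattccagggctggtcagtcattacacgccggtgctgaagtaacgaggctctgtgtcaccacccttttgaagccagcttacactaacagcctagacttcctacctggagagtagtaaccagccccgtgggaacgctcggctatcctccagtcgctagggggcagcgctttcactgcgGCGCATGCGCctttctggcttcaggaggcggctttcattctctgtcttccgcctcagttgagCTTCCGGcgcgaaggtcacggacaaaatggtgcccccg
Cox6a1, chr5:115348909-115349208, minus strand: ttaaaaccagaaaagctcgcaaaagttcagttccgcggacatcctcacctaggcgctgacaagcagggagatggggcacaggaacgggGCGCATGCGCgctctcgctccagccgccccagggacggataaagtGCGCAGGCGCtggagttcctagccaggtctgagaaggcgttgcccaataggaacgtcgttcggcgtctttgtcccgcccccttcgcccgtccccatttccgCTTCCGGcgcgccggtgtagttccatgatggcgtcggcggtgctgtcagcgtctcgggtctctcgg
Sdha, chr13:74350191-74350490, minus strand: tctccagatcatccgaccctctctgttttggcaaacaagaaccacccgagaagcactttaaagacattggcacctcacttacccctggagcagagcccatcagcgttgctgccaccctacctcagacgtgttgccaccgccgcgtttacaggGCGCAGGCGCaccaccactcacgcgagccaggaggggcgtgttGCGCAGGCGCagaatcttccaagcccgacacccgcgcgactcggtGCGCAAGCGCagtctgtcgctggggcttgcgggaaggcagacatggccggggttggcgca
Ndufa12, chr10:94198785-94199084, plus strand: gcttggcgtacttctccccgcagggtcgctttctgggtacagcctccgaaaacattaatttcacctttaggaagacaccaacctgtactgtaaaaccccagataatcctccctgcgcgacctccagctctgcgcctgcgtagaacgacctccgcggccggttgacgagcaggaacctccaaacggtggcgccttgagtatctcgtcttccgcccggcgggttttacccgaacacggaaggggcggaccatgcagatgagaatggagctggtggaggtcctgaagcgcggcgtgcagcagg
Atp5k held 1 NRF1 and 1 ETS match, Cox6a1 held 2 NRF1 matches and 1 ETS match, and Sdha held 3 NRF1 matches. Ndufa12 held none. Atp5k and Sdha, which differed in opposite directions below, both carried NRF1 matches. The relation of matches to these differences was not tested. None of the matches overlapped another.

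The 94 genes lie on 19 chromosomes, with at most 8 on any of them and 3 on chromosome X (Ndufb11, Cox7b and Ndufa1). They are short: the median coding length was 435 bases against 1386 for the protein-coding genes tested. For 36 of the 94 (38.3%) another protein-coding gene starts within 1000 bases on the opposite strand, as with Sdha and Ccdc127, whose starts are 29 bases apart. The share over 15982 tested nuclear protein-coding genes was 14.0%. Processed pseudogenes of these genes are common, and 32 of the 94 share over 10% of their 50-base stretches with another annotated transcript, 7 of them over 50%. Values for those genes are uncertain because the counting tool, and so its handling of shared reads, is not given in the sources used here. Among the genes named below this concerns Ndufa12 (53.8% shared, most with Gm15920), Atp5h (50.5%, with Gm10250), Atp5g2 (100%, with Gm10175) and Uqcrb (43.4%, with Gm16089). It also concerns Sdhaf1 (69.0% shared), Ndufs3 (39.7%), Ndufb2 (33.5%), Uqcrc2 (24.8%, with Pdzd9), Cox7a2l (17.7%), Ndufb11 (17.5%), Ndufab1 (12.3%), Cox6a1 (12.3%), Cox4i1 (12.2%, with Emc8) and Uqcr11 (10.9%). Cox5a is concerned as well, with over 10% of its stretches shared. Atp5o was counted at only 5.54 CPM. A second annotated gene of the same symbol holds 50.3% of its stretches, and 47.9% of its exonic bases overlap Gm15976, so its level is uncertain too.

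Levels can be compared between genes only per length, here as TPM (transcript levels scaled to a common total, by length of the union of annotated exons). On this scale the 94 genes ran from 1.80 TPM for Sdhaf1 to 553 TPM for Cox8a, a small complex IV subunit, with a median of 74.1 TPM. Within complex I the highest and lowest mean levels were those of Ndufa1 (282 TPM) and Ndufb2 (5.85 TPM), both accessory subunits. The length used widens this gap: their annotated exons span 419 and 5628 bases for 210 and 315 coding bases, and their mean CPM were 54.9 and 14.9. Genes with long annotated exons are in this way set low in TPM. Among the 7 core subunits of complex I, which carry the electron transfer chain, levels ran from 20.03 TPM for Ndufs1 to 123 TPM for Ndufs8. The 4 subunits of complex II were close together: Sdha, the flavoprotein, had 96.8 TPM, Sdhd 73.2 TPM, Sdhb, the iron-sulfur protein, 72.9 TPM and Sdhc 46.6 TPM. Complex III ran from Uqcrc1 (52.2 TPM) to Uqcrh (197 TPM). Complex V ran from Atp5o (6.08 TPM) to Atp5a1 (284 TPM), the catalytic-core alpha subunit. The 5 subunits of the catalytic F1 part had the highest median of any class at 163 TPM, and assembly factors of complex I and complex II the lowest, at 17.1 and 7.35 TPM.

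**Figure D1:**
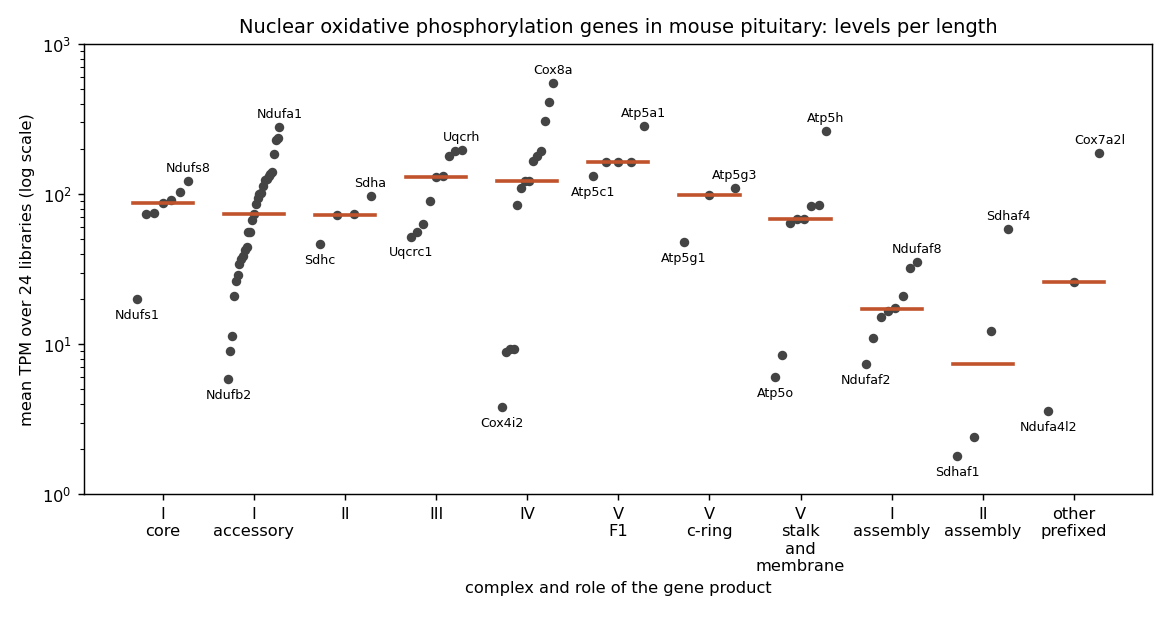
Mean TPM over 24 libraries on a log axis, each point a gene, by complex and role of its product, with the class median as a line and the highest and lowest gene of most classes named. Complex IV spans the widest range, from Cox4i2 at 3.82 TPM to Cox8a at 553 TPM, with tissue-restricted isoforms and also Cox5a (9.22 TPM) at its foot.

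Complex IV has isoforms used in muscle, lung or testis beside the common ones, and the pituitary libraries held the common ones. Cox4i1 had 192 TPM and its lung-type counterpart Cox4i2 3.82 TPM. Cox6b1 had 306 TPM and the testis-type Cox6b2 9.34 TPM. Cox7a2 had 167 TPM and the muscle-type Cox7a1 8.92 TPM. Ndufa4 had 110.0 TPM and Ndufa4l2 3.59 TPM. The common isoforms Cox6a1 and Cox8a had 411 and 553 TPM, and Cox6a2, Cox8b, Cox8c and Cox7b2 stayed under 1 CPM. Cox5a, not one of the restricted isoforms, had 9.22 TPM. Its level is uncertain because it shares stretches with another transcript, so no conclusion on low levels is drawn from it. Of the 8 restricted isoforms, 5 passed the filter on low counts and 1, Cox8b, was called in any comparison: it was lower in female than in male Egr1cKO, but it rests on 152 counts over all 24 libraries. Skeletal muscle markers were near 0 in all libraries, with at most 7.63 CPM for any of the 9 (Myh4).

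Total counts ranged from 15486069 to 26255343 per library, and the hormone genes Gh, Prl and Pomc, the lineage factors Pou1f1 and Tbx19, and Fshb and Tshb were detected in every library. In bulk tissue, fewer cells of a type and less RNA per cell cannot be told apart. Some libraries stood apart. Female wild type library 1 correlated at only 0.780 to 0.786 with the other 2 of its group over 11372 genes (Pearson r of log2 CPM), while those 2 correlated at 0.978 with each other. Outside their group, libraries 2 and 3 were closest to male libraries, at 0.956 and 0.960, and library 1 to a female Egr1cKO control, at 0.940. In the same library 10.1% of counts came from the mitochondrial chromosome, against 2.14% and 2.695%. Male Cre control library 1 correlated at 0.928 and 0.931 with its group, whose other 2 libraries correlated at 0.980. Mitochondrial shares were 2.08% to 4.796% in the 12 male libraries and 8.73% to 10.4% in female Egr1cKO. Where leaving out 1 library of a comparison changed a count or a median of these genes by over 1.5 times, the value without it is given with the result or in the closing section.

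Summed over the 94 genes, levels in CPM (here and below scaled by TMM library factors) were 7284, 7327 and 5944 in male wild type and 5747, 6413 and 5826 in female wild type. They were 8670, 4954 and 5472 in male Cre control and 7573, 7149 and 8116 in female Cre control. In Egr1cKO controls they were 7109, 5862 and 6054 in males and 5098, 4921 and 5471 in females. In Egr1cKO they were 6781, 7089 and 7750 in males and 6150, 6413 and 7971 in females. Female Cre control thus lay above female wild type, and female Egr1cKO above female Egr1cKO control, with no overlap. In males, Cre control library 1 was the highest of all 24 libraries and its group mates were the lowest of the 12 male ones. For 27 of the 94 genes that 1 library held the highest value of the 24, and for 40 genes male Cre control library 2 held the lowest. The matching shares over all genes are not given, so these counts are not read as particular to the 94.

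**Figure D2:**
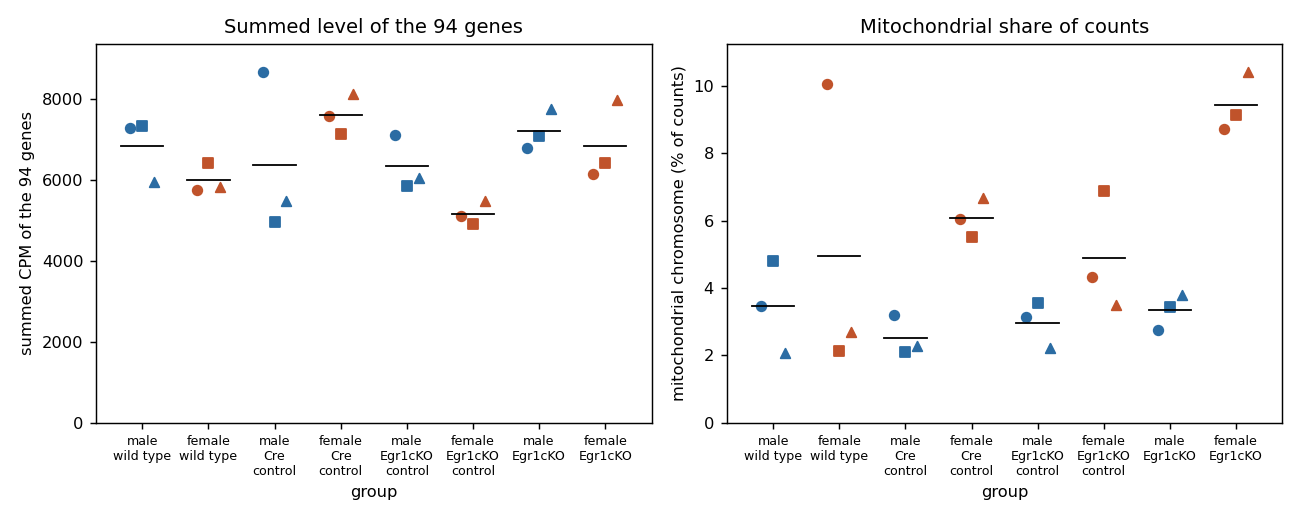
Left, summed CPM of the 94 genes in each library; right, the percent of counts from the mitochondrial chromosome. Points are libraries (circle, square and triangle for 1, 2 and 3; blue male, orange female) and lines are group means; female Cre control lies above female wild type on the left, and female wild type library 1 has 10.1% against 2.14% and 2.695% on the right.

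The Cre controls ask what Cre does without a floxed gene. In females most of the 94 genes were higher with Cre: 81 had a positive log2 fold change, with a median of 0.51 against -0.04 over all 21927 genes. Yet only 2 of the 94 passed the test (edgeR quasi-likelihood, Benjamini-Hochberg adjusted p under 0.05), against 1.21% of all genes called (0.369% higher). Both rose. DESeq2 called 8, against 4.61% of all genes. For 45 genes (47.9%) all 3 female Cre control libraries lay above all 3 female wild type libraries, and for none below; over all genes tested 8.02% lay above and 6.83% below. At an unadjusted p under 0.05, 43 genes were higher and 2 lower, against 6.07% and 10.7% of all genes.

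Ndufa12, an accessory subunit of complex I (ENSMUSG00000020022, chr10:94198720-94221443, plus strand), had 89.7, 83.4 and 84.5 CPM in female Cre control and 49.6, 48.0 and 40.7 CPM in female wild type. The groups were far apart, and the log2 fold change was 0.90 with a standard error of 0.21 (edgeR adjusted p = 0.0369). Atp5k, the e subunit of the ATP synthase membrane part (ENSMUSG00000050856, chr5:108433244-108434448, minus strand), had 29.7, 32.98 and 38.8 CPM against 20.4, 14.7 and 16.04 CPM. Again no library of one group reached the other, and the log2 fold change was 0.99 with a standard error of 0.25 (edgeR adjusted p = 0.0443). Cox4i1, the common isoform of complex IV subunit 4, came next and did not pass, with a log2 fold change of 0.65 and an edgeR adjusted p of 0.0684.

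By role, the female Cre difference was uneven. The median log2 fold change was 0.65 over 14 complex IV subunits, 0.62 over 8 subunits of the complex V stalk and membrane parts, 0.55 over 29 complex I accessory subunits, 0.44 over 7 complex I core subunits and 0.35 over 9 complex III subunits. It was -0.12 over the 4 complex II subunits and -0.07 over the 5 F1 subunits. Among assembly factors it was 0.40 for complex I and 0.50 for complex II. Sdha, which holds the succinate-binding site, had a log2 fold change of -0.74 (edgeR adjusted p = 0.162) and Cox7a2l, a supercomplex assembly factor, -1.31 (edgeR adjusted p = 0.116); neither passed. The other complex II subunits had log2 fold changes of 0.43 (Sdhb), 0.14 (Sdhc) and -0.39 (Sdhd).

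The female Cre calls depended on the wild type libraries. Without female wild type library 1, 39 of the 94 passed (33 higher and 6 lower), and leaving out any other library of the comparison left 0. Of 23210 genes 15.5% passed in that fit, 6.65% higher and 8.88% lower. The share of the 94 called lower, 6.38%, was thus below that of all genes. Without library 1 the 6 lower genes were Sdha (log2 fold change -1.14, edgeR adjusted p = 2.94e-05), Cox7a2l (-1.77), Atp5a1 (-0.73), Atp5b (-0.74), Uqcrc2 (-0.78) and Sdhd (-0.78). In the full data these genes differed within the female wild type group itself. Sdha had 76.1 CPM in library 1 and 276 and 264 CPM in libraries 2 and 3, against 120, 130 and 119 CPM in female Cre control. Cox7a2l had 44.8, 255 and 204 CPM, against 50.9, 89.4 and 62.5 CPM. Atp5a1 had 172, 582 and 528 CPM, against 309, 333 and 362 CPM. For these genes library 1 lay on the far side of the Cre controls from its group mates. Uqcrb, a complex III subunit, differed the other way round, with 78.0 CPM in library 1 and 27.0 and 30.5 CPM in libraries 2 and 3. With female wild type libraries 2 and 3 left out instead, a choice made after seeing the data, 9 passed, all higher (4.56% of all genes). With the mitochondrial share as a covariate 0 of the 94 passed, and the median log2 fold change was 0.42. Summed markers of pituitary cell types differed in this comparison too. The 4 somatotrope and lactotrope markers summed to 143693 to 158664 CPM in female Cre control against 190509 to 295956 CPM in female wild type, the 5 corticotrope and melanotrope markers to 51656 to 94809 CPM against 36359 to 40799 CPM, and the 5 posterior lobe markers to 238 to 271 CPM against 151 to 205 CPM. All of them were detected in every library. The median over all libraries was 104778 CPM for Gh and 44778 CPM for Prl, against 154 CPM for Pou1f1 and 149 CPM for Ghrhr. It was 39391 CPM for Pomc, against 439 CPM for Pcsk2, 191 CPM for Tbx19, 80.2 CPM for Pax7 and 27.7 CPM for Crhr1. The first 2 sums are thus mostly these hormone transcripts. The part of the markers in the result was not tested.

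In males the median difference with Cre was -0.22, with 70 of the 94 genes negative, and 0 of the 94 passed the test (edgeR; 0.233% of all genes called), nor did any with DESeq2 (1.2%). Before adjustment (p under 0.05) 2 genes were higher and 7 lower, against 4.84% and 6% of all genes. The 3 with the smallest p were Ndufab1, the mitochondrial acyl carrier protein (log2 fold change -0.64), Uqcrc2, a core protein of complex III (0.72), and Atp5h, the d subunit of the ATP synthase stalk (-0.66), with edgeR adjusted p-values of 0.281, 0.350 and 0.385. Cre control lay wholly above wild type for 6 genes and wholly below for 3 (11.1% and 10.5% of all genes). Ndufa12 measured 68.6, 42.3 and 42.6 CPM with Cre and 78.1, 85.8 and 53.6 CPM in male wild type, which overlap. Sdha had 258, 227 and 242 CPM against 197, 154 and 197 CPM, so the groups did not overlap and Cre control was above. Library scaling set the sign of the median: with library totals alone it was 0.10, while the median over all genes moved from 0.01 to 0.34. Their median was below that of all genes under both scalings. Single libraries moved it further: it was -0.51 without Cre control library 1, -0.04 without Cre control library 2, -0.11 without Cre control library 3, -0.13 without wild type library 2 and -0.33 without wild type library 3, and 0 passed in each of these fits. The somatotrope and lactotrope markers, mostly Gh and Prl, summed to 44953 to 94135 CPM in male Cre control against 232546 to 315327 CPM in male wild type. Their part in the result was not tested.

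**Figure D3:**
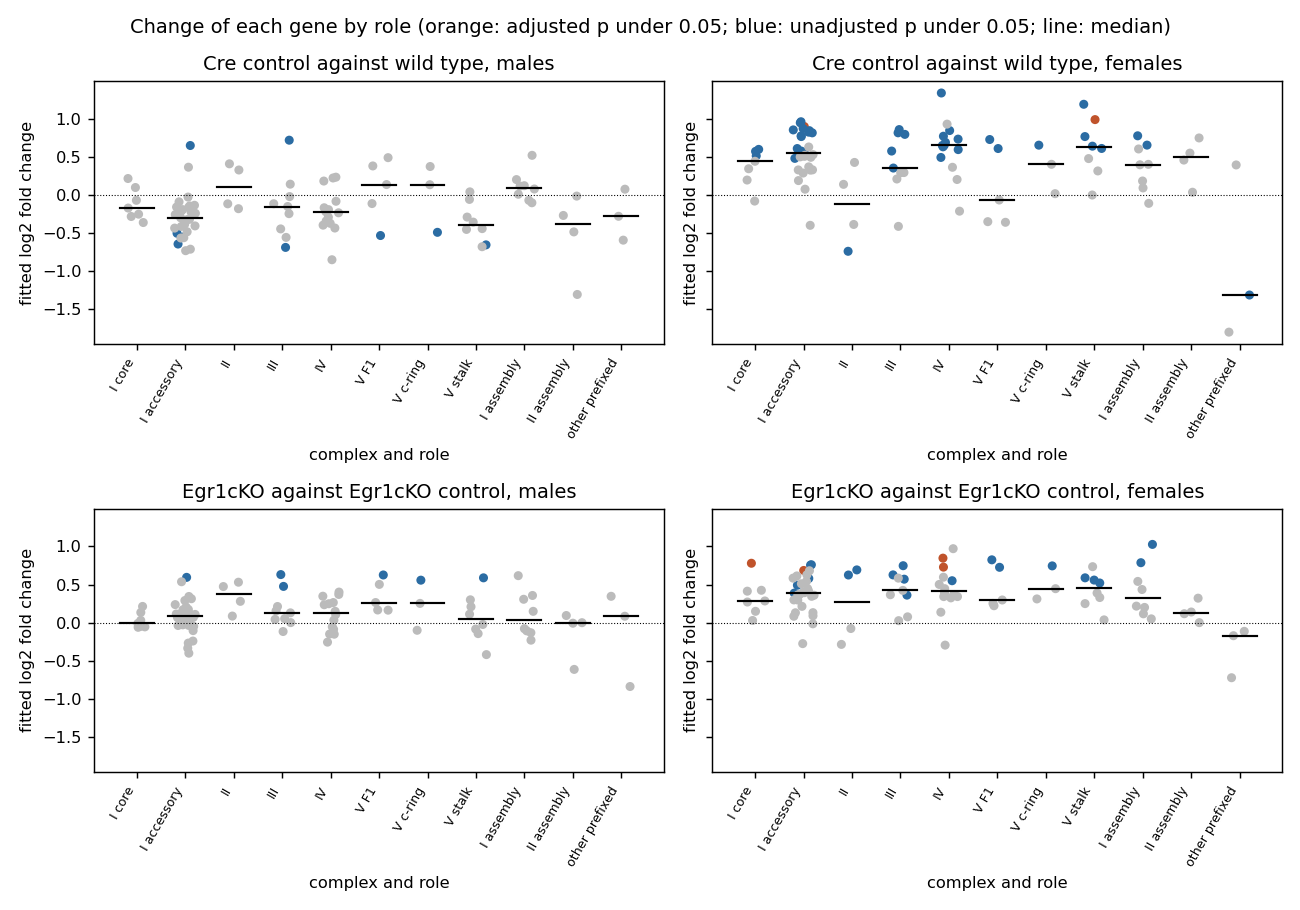
Fitted log2 fold change of each of the 94 genes by complex and role, for Cre control against wild type (top) and Egr1cKO against Egr1cKO control (bottom) in males (left) and females (right). Orange points have an adjusted p under 0.05, blue points an unadjusted p under 0.05, and lines are class medians; orange points occur in the female panels alone, 2 with Cre and 4 with Egr1cKO.

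The difference between the sexes in the Cre effect was tested as an interaction. Its median was 0.70 over the 94 genes against -0.05 over all genes, and 0 of the 94 passed (edgeR; 0.128% of all genes called). With p under 0.05 before adjustment, 45 were higher and 5 lower, against 7.47% and 10.5% of all genes, and DESeq2 called 17 (16 higher and 1 lower; 4.15% of all genes). The smallest edgeR adjusted p was 0.0515, shared by Ndufa12 (log2 difference 1.40, standard error 0.30) and Ndufab1 (1.41, standard error 0.31), followed by Atp5k (1.43, adjusted p = 0.0632). By role the median interaction was 0.996 for the complex V stalk and membrane parts, 0.897 for complex IV, 0.86 for complex I accessory subunits, 0.74 for complex I core subunits and 0.54 for complex III, but -0.20 for complex II and -0.20 for F1.

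This count turned on single libraries. Without female wild type library 1, 48 of the 94 passed the interaction test (41 higher and 7 lower). Of all genes 18.7% passed, 8.89% higher and 9.8% lower, so the share of the 94 called lower (7.45%) was below that of all genes. Without male Cre control library 1, 35 passed, all higher (2.29% of all genes called, 1.41% higher). Leaving out male wild type library 3 gave 3, and leaving out each of the other 9 libraries gave 0. The 7 lower genes without female wild type library 1 were Sdha, Sdhd, Atp5a1, Atp5b, Uqcrc2, Ndufa9 and Cox7a2l. When instead female wild type libraries 2 and 3 were left out, again after seeing the data, 0 passed (0.306% of all genes), and the lone remaining library was assumed to vary like the other groups. Which of the female wild type libraries is typical was not tested.

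**Figure D4:**
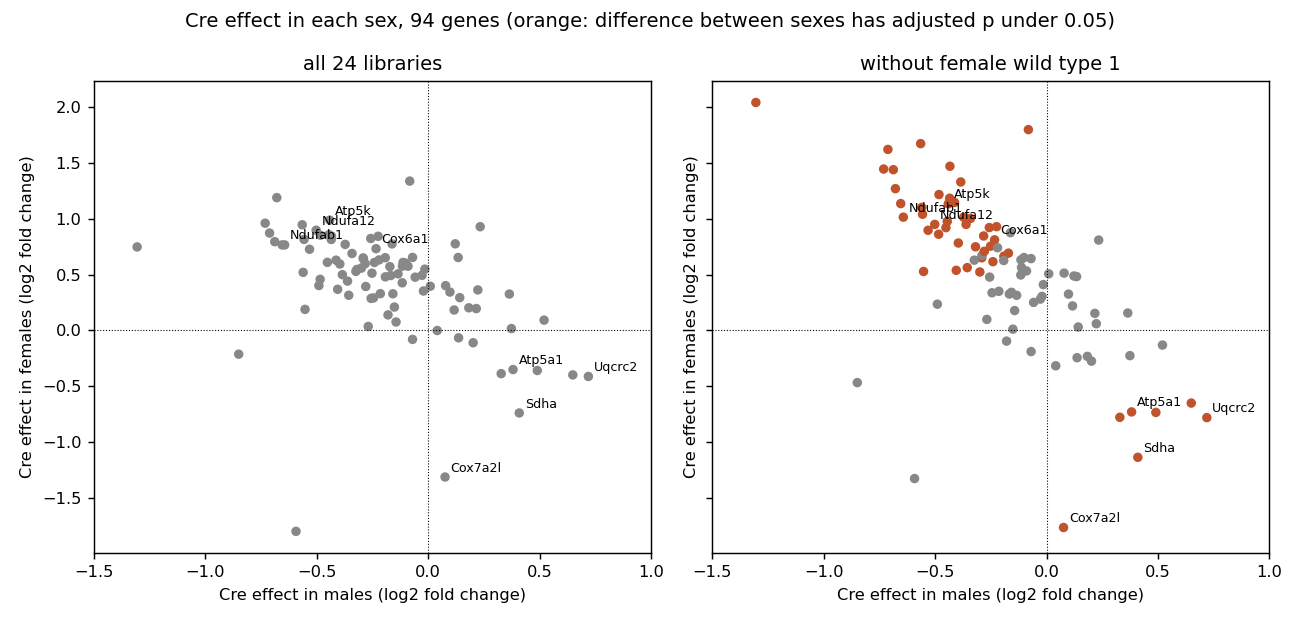
Log2 fold change of Cre control against wild type in females (vertical axis) against males (horizontal axis) for the 94 genes, with all 24 libraries (left) and without female wild type library 1 (right). Orange points have an adjusted p under 0.05 for the difference between the sexes: 0 on the left and 48 on the right, 7 of them in the lower right corner. Those 7 are 7.45% of the 94, against 9.8% of all genes called lower.

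Coding length went along with these differences. Across the 94 genes, the Pearson correlation of the interaction with log2 coding length was -0.45, and it was -0.36 for the female Cre difference and 0.41 for the male one; over 15982 protein-coding genes it was -0.12, -0.10 and 0.06. The 47 genes with the shorter coding lengths had a median interaction of 0.93 and the 47 longer ones 0.54, while all tested protein-coding genes up to the same length had 0.47 and longer ones -0.08. The genes share libraries and so are not independent points.

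Egr1cKO against Egr1cKO control, the comparison of floxed mice with and without Cre, again gave calls only for females at this threshold. In females 85 of the 94 genes had a positive log2 fold change, with a median of 0.38 against -0.05 over all genes. In all, 4 of the 94 passed and rose, against 2.21% of all genes called (0.762% higher). At an unadjusted p under 0.05, 24 were higher and 0 lower, against 7.16% and 12.1% of all genes. For 45 genes the 3 Egr1cKO libraries lay above the 3 controls, and for 1 below; over all genes 9.57% lay above and 11.9% below. DESeq2 called 10, all higher (6.63% of all genes called, 2.14% higher).

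The 4 genes were 2 subunits of complex IV and 2 of complex I. Cox4i1 (ENSMUSG00000031818, chr8:120668222-120674207, plus strand) had 139, 157 and 202 CPM in female Egr1cKO and 98.3, 92.4 and 109.7 CPM in female control. All Egr1cKO libraries were above all controls, with a log2 fold change of 0.73, a standard error of 0.18 and an edgeR adjusted p of 0.0331. Cox6a1, a small regulatory subunit of complex IV (ENSMUSG00000041697, chr5:115345642-115348981, minus strand), had 170.3, 151 and 195 CPM against 94.9, 81.7 and 111 CPM. Here too the groups were apart, with a log2 fold change of 0.85, a standard error of 0.22 and an edgeR adjusted p of 0.0369.

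Ndufs7, a core complex I subunit that carries the iron-sulfur cluster next to ubiquinone (ENSMUSG00000020153, chr10:80249121-80256794, plus strand), had 87.0, 85.0 and 92.2 CPM against 51.0, 47.2 and 55.8 CPM. Its groups were tight and apart, with a log2 fold change of 0.78, a standard error of 0.20 and an edgeR adjusted p of 0.0414. Ndufa8, an accessory complex I subunit of the intermembrane-space side (ENSMUSG00000026895, chr2:36036326-36049406, minus strand), had 46.9, 43.5 and 55.4 CPM against 30.9, 28.5 and 31.3 CPM. The log2 fold change was 0.68 with a standard error of 0.18 (edgeR adjusted p = 0.0467), and again the groups did not overlap. Without control library 1 or 2 or Egr1cKO library 3, 0 of the 94 passed, and without each of the other 3 libraries 2 passed. Cox6a1 passed in 2 of the 6 fits and Cox4i1 in 1, while neither Ndufs7 nor Ndufa8 passed in any. The remaining calls fell on other genes of the 94. Log2 fold changes over the 6 fits were 0.56 to 0.85 for Cox4i1, 0.74 to 0.96 for Cox6a1, 0.72 to 0.84 for Ndufs7 and 0.58 to 0.76 for Ndufa8. The direction held in all 6 fits and the calls did not.

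Medians by role in this comparison were 0.45 for the complex V stalk and membrane parts, 0.45 for the c-ring, 0.42 for complex III, 0.42 for complex IV, 0.39 for complex I accessory subunits, 0.30 for F1, 0.28 for complex I core subunits and 0.27 for complex II. They were 0.33 for complex I assembly factors and 0.13 for complex II assembly factors, and -0.17 for Cox7a2l, Atp5s and Ndufa4l2, all 3 negative. Within complex II, Sdhb (0.69) and Sdhc (0.62) had positive log2 fold changes with edgeR adjusted p-values of 0.0755 and 0.0692. Sdha (-0.08) and Sdhd (-0.29) did not follow them. Sdha had 103, 107 and 104 CPM in female Egr1cKO and 109.4, 91.7 and 130.4 CPM in control, which overlap. Mitochondrial shares were 8.73% to 10.4% in female Egr1cKO and 3.50% to 6.87% in its control. The 5 corticotrope and melanotrope markers (Pomc, Tbx19, Crhr1, Pcsk2 and Pax7), all detected in every library, summed to 82219 to 226869 CPM against 11883 to 39242 CPM. This sum is mostly Pomc. The 5 posterior lobe markers, also all detected, summed to 291 to 385 CPM against 150.0 to 159 CPM. The 4 somatotrope and lactotrope markers, mostly Gh and Prl, summed to 66065 to 113421 CPM against 188262 to 313495 CPM. The part of these in the result was not tested. With the mitochondrial share as a covariate 6 of the 94 passed, all higher, and the median log2 fold change was 0.19. The shares of these groups did not overlap, so genotype and share can hardly be told apart in that fit.

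In males 0 of the 94 passed between Egr1cKO and its control (edgeR; 0.041% of all genes called), nor did any with DESeq2 (0.47%), and 6 were higher and 0 lower at an unadjusted p under 0.05 (2.88% and 3.69% of all genes). For 14 genes Egr1cKO lay wholly above its control and for 2 below, against 10.8% and 10.2% of all genes. The median was 0.10 against 0.03 over all genes. Without Egr1cKO library 3 it turned to -0.02, it was 0.04 without control library 2 or 3, 0.17 without Egr1cKO library 1 and 0.22 without control library 1. The 3 genes with the smallest p were Atp5g2, a copy of the proton-carrying c subunit (0.56), Atp5b, the catalytic beta subunit (0.63), and Uqcrc2 (0.63), with edgeR adjusted p-values of 0.630, 0.681 and 0.700. Ndufs7 had 58.05, 65.6 and 72.6 CPM in male Egr1cKO and 74.4, 62.0 and 56.0 CPM in male control, which overlap. The difference between the sexes in the Egr1cKO effect had a median of 0.27, and 0 of the 94 passed (edgeR; 0.0228% of all genes called; 0 with DESeq2, against 0.369%). Before adjustment (p under 0.05) 6 were higher and 0 lower, against 2.39% and 6.06% of all genes. Cox4i1 came first with a log2 difference of 0.70 (edgeR adjusted p = 0.524), followed by Ndufs7 at 0.75 (0.538) and Ndufb10 at 0.78 (0.538). A difference between the sexes in this effect was therefore not shown.

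**Figure D5:**
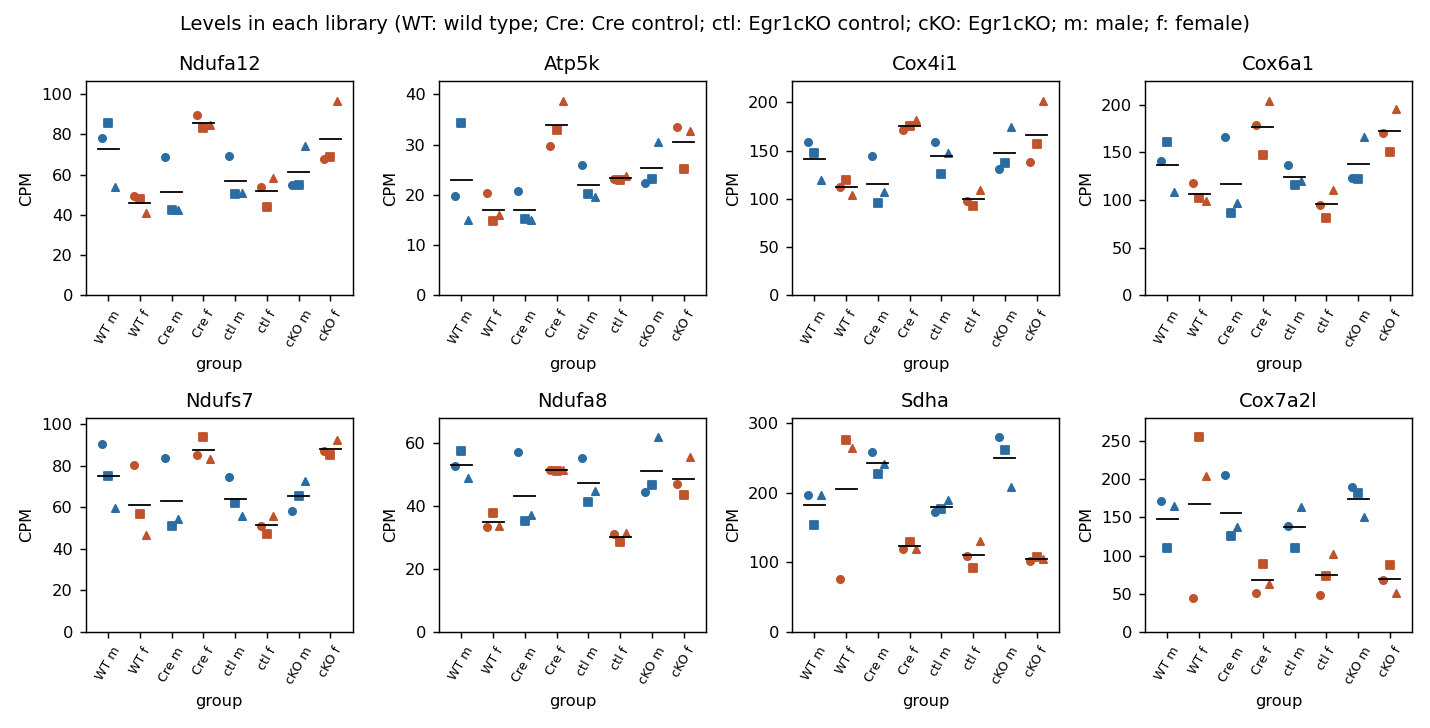
CPM in each library for 8 genes, with circle, square and triangle for libraries 1, 2 and 3, blue for males, orange for females and lines for group means. In the first 6 panels female Cre control and female Egr1cKO lie above female wild type and female Egr1cKO control, while Sdha and Cox7a2l are lower in females than in males outside the wild type group.

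Because the Cre controls lack floxed Egr1, the Egr1cKO difference minus the Cre difference addresses what floxed Egr1 adds to Cre. It had a median of -0.09 in females and 0.31 in males, and in neither sex did any of the 94 pass (edgeR; 0.00456% and 0% of all genes called; none with DESeq2, against 0.42% and 0%). With p under 0.05 before adjustment, 1 was higher and 1 lower in females, against 4.55% and 5.26% of all genes, and 2 were higher and 0 lower in males, against 0.725% and 0.337%. The male median was 0.63 without Cre control library 1, 0.13 without Cre control library 2 and 0.18 without Cre control library 3. The female one ran from -0.24 without Egr1cKO library 3 and -0.17 without wild type library 1 to between -0.05 and -0.01 without Egr1cKO library 1 or 2, wild type library 2 or 3 or Cre control library 3. In females the smallest p-values belonged to Ndufab1 (-1.04, edgeR adjusted p = 0.339), Atp5g2 (0.73, 0.461) and Cox7a2l (1.199, 0.512). In males they belonged to Atp5e, the epsilon subunit (0.70), Ndufc1 (0.70) and Ndufa12 (0.62), all with an edgeR adjusted p of 0.99996. Without female wild type library 1, 7 of the 94 passed in females, 6 higher (Sdha, Atp5b, Atp5a1, Cox7a2l, Atp5g2 and Sdhc) and 1 lower, Ndufab1 (5.52% of all genes). Side by side in females, the log2 fold changes with Cre and with Egr1cKO were 0.65 and 0.73 for Cox4i1, 0.73 and 0.85 for Cox6a1, 0.51 and 0.78 for Ndufs7, 0.56 and 0.68 for Ndufa8, 0.90 and 0.58 for Ndufa12, and 0.99 and 0.39 for Atp5k.

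Females and males were then compared within each genotype. In wild type 0 of the 94 passed (edgeR; 0.283% of all genes called; 0 with DESeq2, against 0.921%), and the median was -0.27 (-0.17 without male library 2). At an unadjusted p under 0.05, 0 were higher and 9 lower in females, against 3.76% and 3.27% of all genes. For 15 genes the females lay wholly below the males and for 0 above, against 5.49% and 4.62% of all genes. Without female wild type library 1, 5 passed, 2 higher and 3 lower (4.41% of all genes), and without libraries 2 and 3, chosen after seeing the data, 11 passed, all lower (6.98%). The smallest p-values were those of Ndufa8 (-0.60), Ndufa12 (-0.65) and Uqcr11 (-0.78), with edgeR adjusted p-values of 0.241, 0.326 and 0.454. In Egr1cKO controls, also without Cre, 0 passed (edgeR; 0.451% of all genes called; 1 with DESeq2, against 2.31%), and the median was -0.24 (-0.13 without male library 1). Before adjustment (p under 0.05) 0 were higher and 13 lower, against 6.17% and 7.61% of all genes. Ndufa8 (-0.64), Atp5a1 (-0.79) and Cox4i1 (-0.53) had the smallest p, with edgeR adjusted p-values of 0.124, 0.184 and 0.192. For 29 genes all female Egr1cKO controls lay below all males, and for 1 above; over all genes 14.1% lay below and 10.9% above.

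With Cre the picture by sex was mixed. In Cre controls 9 of the 94 passed, 8 higher and 1 lower in females, against 3.61% of all genes called (1.6% higher, 2.01% lower), and the median was 0.40. That median was 0.72 without male library 1, 0.19 without male library 2 and 0.22 without male library 3, and 0.17 with library totals alone, where the median over all genes moved from -0.02 to -0.26. DESeq2 called 26, against 9.57% of all genes. With p under 0.05 before adjustment, 39 were higher and 7 lower, against 10.6% and 13% of all genes, and the sexes did not overlap for 24 higher and 7 lower genes, against 15% and 18%. The 8 were Atp5o (1.61), Uqcrb (1.19), Atp5h (1.075), Atp5k (0.998), Ndufa3 (0.92), Ndufab1 (0.87), Ndufa12 (0.75) and the core complex I subunit Ndufs3 (0.72), with edgeR adjusted p-values of 0.0174 to 0.0490. Atp5h had 266, 237 and 260 CPM in females and 179, 87.5 and 95.5 CPM in males. Uqcrb had 78.5, 69.7 and 86.5 CPM in females and 46.3, 23.4 and 33.2 CPM in males. Sdha was the lower one, at 120, 130 and 119 CPM against 258, 227 and 242 CPM in males (log2 fold change -0.98, standard error 0.27, edgeR adjusted p = 0.0433). For all 3 the sexes did not overlap. Without male Cre control library 1, 42 passed, all higher (4.19% of all genes called, 2.22% higher), and leaving out each of the other 5 libraries left 0 or 1. With either covariate, the mitochondrial share (5.52% to 6.69% in females, 2.08% to 3.20% in males) or the number of genes detected at equal depth, 0 passed. The mitochondrial shares did not overlap, so sex and that share can hardly be told apart. The somatotrope and lactotrope markers, mostly Gh and Prl, summed to 143693 to 158664 CPM in females against 44953 to 94135 CPM in males, with no overlap. Their part in the result was not tested.

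In Egr1cKO 8 of the 94 passed, 1 higher and 7 lower in females, against 13.1% of all genes called (5.49% higher, 7.57% lower), so the share of these genes called (8.51%) was below that of all genes. DESeq2 called 10, against 19% of all genes. At an unadjusted p under 0.05, 7 were higher and 11 lower, against 12.1% and 18.9% of all genes, and the sexes did not overlap for 14 higher and 16 lower genes, against 14.9% and 23.5%. The 7 lower genes were Cox7a2l (-1.34), Sdha (-1.25), Atp5a1 (-1.07), Uqcrc2 (-1.07), Sdhd (-1.03), Atp5b (-0.96) and Ndufa9 (-0.89), and Atp5o was higher (1.12). Sdha had 103, 107 and 104 CPM in females and 280, 261 and 208 CPM in males (standard error 0.27, edgeR adjusted p = 0.00575), and it passed in each of the 6 fits that left out 1 library. Of the others, Atp5a1 passed in 4 of these fits, Uqcrc2 in 3, Ndufa9 in 2, Atp5b and Sdhd in 1, and Cox7a2l and Atp5o in none. The count of 8 fell to 1 without male library 1 or 2, to 2 without female library 2, to 3 without female library 1 and to 4 without female library 3, and was 6 without male library 3. Atp5a1 had 249, 260 and 295 CPM in females and 621, 580 and 489 CPM in males. Uqcrc2 had 49.98, 35.02 and 45.3 CPM in females and 92.3, 105 and 76.3 CPM in males. The sexes were apart for each of these. The median over the 94 was 0.10 with TMM factors and -0.10 with library totals alone, so no direction is given for them as a whole. It was -0.06 without female library 3, 0.17 without female library 2 and 0.21 without male library 3. With either covariate 0 passed, the median was -0.22 (mitochondrial share) or -0.29 (genes detected), and mitochondrial shares were 8.73% to 10.4% in females and 2.76% to 3.79% in males.

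Sdha, the catalytic subunit of complex II (ENSMUSG00000021577, chr13:74322254-74350280, minus strand), thus had its own order of levels. Group means were 249.7 ± 37.5 CPM in male Egr1cKO, 243 ± 15.6 in male Cre control, 206 ± 112 in female wild type, 183 ± 24.6 in male wild type, 180 ± 9.39 in male Egr1cKO control, 123 ± 6.06 in female Cre control, 111 ± 19.3 in female Egr1cKO control and 105 ± 2.44 in female Egr1cKO (SD, n = 3 each). The 3 lowest groups are all female, and neighbours among them overlap or differ by less than their spread, while female Cre control lies wholly above female Egr1cKO. Female wild type is split, with library 1 at 76.1 CPM below all other libraries and libraries 2 and 3 among the 4 highest.

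Other parts of the mitochondrial system were set beside these genes. Of the 13 subunits encoded by mitochondrial DNA, 12 were tested. With Cre in females 0 of 12 passed and the median was 0.20, with Egr1cKO in females 0 passed and the median was 0.95. In males 0 passed in either comparison. The male median was -0.89 with Cre, with all 12 negative, and -0.05 with Egr1cKO. Between the sexes, 2 of 12 were higher in female Cre controls, including mt-Nd6 (1.79) and mt-Nd2 (1.78), and 7 of 12 in female Egr1cKO, including mt-Nd2 (2.01) and mt-Cytb (1.80). In wild type and Egr1cKO controls 0 passed between the sexes. All 12 were positive for females there too, with medians of 0.43 and 0.80. Of the 77 mitochondrial ribosome genes, 1 rose with Cre in females, Mrpl22 (1.26, edgeR adjusted p = 0.0130), with a median of 0.35. In the interaction 0 of the 77 passed, with a median of 0.47 and 26 higher and 0 lower at an unadjusted p under 0.05. Of 86 cytosolic ribosome genes tested, 2 rose with Egr1cKO in females, Rps19 (0.88) and Rplp2 (0.74), with a median of 0.52. There 81 of the 86 were positive, and 44 were higher and 0 lower at an unadjusted p under 0.05. With Cre in females their median was 0.26, with 20 higher and 1 lower. In Cre controls 11 of the 86 and 6 of the 77 mitochondrial ribosome genes passed between the sexes, all higher in females. Both female differences, with Cre and with Egr1cKO, had positive medians over ribosomal genes as well as over the 94.

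Of 14 regulators of mitochondrial biogenesis, 0 passed with Cre or Egr1cKO in either sex by edgeR, with 1 higher at an unadjusted p under 0.05 in each male comparison and none in either female one, and their medians ran from -0.05 to 0.13. Of 16 genes of the tricarboxylic acid cycle 0 passed in these 4 comparisons, and in none of them were more than 2 higher or 2 lower at an unadjusted p under 0.05. Their median was 0.06 with Cre in females and 0.06 in males. With Egr1cKO it was 0.15 in females, with 15 of 16 positive, and 0.20 in males, with 13 of 16 positive. Between the sexes in Egr1cKO 4 were lower in females, including Suclg2 (-0.71) and Sucla2 (-0.71). Of 18 glycolysis genes tested 0 passed with Cre or Egr1cKO in either sex by edgeR. With Egr1cKO their median was 0.29 in females, with 5 higher and 1 lower at an unadjusted p under 0.05, and 0.32 in males, with 2 higher, 0 lower and 16 of 18 positive. With Cre it was -0.12 in females (3 higher and 2 lower) and 0.26 in males (0 either way). Between the sexes in Egr1cKO, 6 glycolysis genes were lower in female Egr1cKO than in male, including Aldoc (-1.02), Hk2 (-1.20) and Pfkm (-0.64). Of 32 other assembly factors and electron carriers 1 rose with Cre in females, Ecsit (0.91, edgeR adjusted p = 0.0416), a complex I assembly factor.

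The spread between libraries sets what could be seen. The median within-group SD of the 94 genes was 0.32 on the log2(CPM + 0.5) scale, from 0.13 for Ndufs1 to 0.83 for Ndufa4l2. It was 0.43 over all genes tested and 0.29 over the 9863 genes between 9.19 and 131 CPM, the range that holds most of the 94. Cyc1, the cytochrome c1 subunit of complex III, was the next steadiest at 0.13, and among well-counted genes Cox7a2l varied most, at 0.59. Low genes carry counting error on top: Cox4i2 had 0 counts in 1 library and Ndufa4l2 in 2.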

How the data were processed

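Counts per Ensembl gene, whole numbers without normalization, were deposited by the authors for 24 libraries. Per the submitters' processing notes, Trim Galore 3.8.2, FastQC and STAR 2.7.9 were used with build GRCm38; neither counting tool nor annotation is named in the sources used here. Genes were matched to GENCODE M21 (GRCm38): 35077 of 35191 identifiers matched and 114 did not. One edgeR 4.0.16 quasi-likelihood model (robust, TMM, filterByExpr, R 4.3.3) with 8 group means was fitted to all 21927 genes kept, and p-values were adjusted over all of them by Benjamini-Hochberg. Fitted fold changes use a prior count of 0.125, and 16 residual degrees of freedom estimate the spread. DESeq2 1.42.0, other filters, scalings, covariates and left-out libraries were alternatives. In each comparison up to 10 called genes a direction with the smallest p are named, or the 3 with the smallest p where fewer than 3 passed, and in addition the highest and lowest of each complex, Sdha to Sdhd, the isoforms, the genes beside the 1 CPM limit and up to 3 called genes of each other list. The members and lists were chosen with earlier results of these data known. Genes shown around a left-out library were named after their values were seen. CPM printed here use library totals scaled by TMM, except for the 1 CPM limit. The model was also run, after the main fit, on counts simulated for the female Cre comparison with the spread that fit had estimated. The outcome is not given here. Some results of the other gene lists are not reported here.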

Additional observations from a re-analysis of the deposited data

How the results depend on the processing

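Of 706 log2 fold changes of single genes recomputed under other settings, 505 kept their direction and side of the threshold, 165 lost the call, 35 gained one and 1 reversed. Of 88 counts under settings other than 1 left-out library, 56 stayed within 1.5 times the reported one. DESeq2 called 10 with Egr1cKO in females, 8 with Cre in females, 26 between the sexes in Cre controls, 1 in Egr1cKO controls and 17 in the sex-by-Cre interaction. Without a filter on low counts the numbers were 8 with Egr1cKO in females, 20 with Cre in females, 1 with Cre in males, 30 between the sexes in Cre controls, 4 in Egr1cKO controls, 1 in wild type, 26 in the sex-by-Cre interaction and 1 for Egr1cKO beyond Cre in females. A minimum mean of 10 CPM gave 8 with Egr1cKO in females, 17 between the sexes in Cre controls and 3 in the sex-by-Cre interaction. Fitting only the groups compared gave 8 with Egr1cKO in females, 0 with Cre in females, 28, 5 and 16 between the sexes in Cre controls, Egr1cKO controls and Egr1cKO. Library totals without TMM gave 9 with Cre in females and 5 between the sexes in Cre controls (3 higher and 2 lower, against 8 and 1). The mitochondrial share as covariate gave 0 with Cre in females, 0 between the sexes in Cre controls and in Egr1cKO, and 1 for Egr1cKO beyond Cre in females. The number of genes detected as covariate gave 0 between the sexes in Cre controls and in Egr1cKO, and 5 in the sex-by-Cre interaction. For the other filters, scaling, covariates and the fits of only the groups compared, the share called over all genes is not given. Changes in those counts, here and above, are therefore not read as particular to the 94. Leaving out 1 library at a time gave 0 to 2 with Egr1cKO in females, 0 to 39 with Cre in females, 0 to 42 between the sexes in Cre controls, 1 to 6 in Egr1cKO and 0 to 5 in wild type, 0 to 48 in the sex-by-Cre interaction and 0 to 7 for Egr1cKO beyond Cre in females. Without female wild type libraries 2 and 3, added after seeing the data, 9 were called with Cre in females, all higher, and 11 between the sexes in wild type, all lower, and Cox7a2l reversed for Egr1cKO beyond Cre in females, at -0.70. Cox7a2l was uncalled there in both fits. Female wild type library 1 and male Cre control library 1 left out together were also tried, but the second was picked partly for its level of these genes, so that fit is not reported. With library totals the median over all genes moved by over 0.1 in 8 of the 12 comparisons, by -0.24 to 0.32, and the median of the 94 relative to it by at most 0.03. Where no reason is given the cause was not tested. No paired analysis was possible because the labels give the groups no shared replicate numbers.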
